A study of Mus musculus with 24 samples.

Results

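The genes described here are 10 transcription factor genes that act when retinal progenitors become amacrine or horizontal cells, namely Foxn4, Ptf1a, Prdm13, Onecut1, Onecut2, Lhx1, Prox1, Tfap2a, Tfap2b and Tfap2c. They were taken by gene symbol from the 46603 annotated genes counted in mouse retinal organoids (MROs). Reads of all 10 genes were found, and 9 of the 10 were abundant enough to be tested, the exception being Lhx1. MROs are retinal tissue that self-organizes in culture from pluripotent stem cells, here the wildtype mouse embryonic stem cell line E14Tg2a. One RNA library was made from each of 24 individual organoids, with 6 organoids for each of D20, D22, D25 and D30, where D is the day of differentiation. All 24 were controls to which water, the solvent, had been added, they came from 1 independent experiment with 1 cell line, and each was lysed whole. The comparisons below therefore ask how the genes changed with age in culture, and the spread between organoids is that within 1 experiment.

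Amacrine cells and horizontal cells are the inhibitory interneurons of the retina. Amacrine cells modulate signals between bipolar cells and ganglion cells, and horizontal cells modulate the output of photoreceptors. Both arise from multipotent progenitors in which the forkhead factor Foxn4 is switched on. Foxn4 acts upstream of Ptf1a, a basic helix-loop-helix factor that binds DNA together with an E protein and Rbpj and that directs cells to the amacrine and horizontal fates, and Prdm13 acts downstream of Ptf1a in amacrine cells. The cut-homeodomain factors Onecut1 and Onecut2, the homeodomain factors Prox1 and Lhx1, and the AP-2 factors Tfap2a, Tfap2b and Tfap2c act later, in horizontal cells, amacrine cells or both. In the mouse retina, horizontal cells are among the first neurons born and the main wave of amacrine cell genesis follows, so genes of the genesis step are transient while those kept in mature cells can persist.

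The promoters of the 4 genes with the steepest falls described below are shown because Ptf1a is known to bind DNA in a complex that also recognizes the letters TGGGAA, the core site of Rbpj. RefSeq promoters of build GRCm38.p6 were matched for 8 of the 10 genes, and 200 bases upstream of the transcription start, from position -250 to position -51, are given 5′ to 3′ on the strand of the gene, with TGGGAA or its reverse complement in capitals.
Foxn4, chr5:114273812-114274011, minus strand: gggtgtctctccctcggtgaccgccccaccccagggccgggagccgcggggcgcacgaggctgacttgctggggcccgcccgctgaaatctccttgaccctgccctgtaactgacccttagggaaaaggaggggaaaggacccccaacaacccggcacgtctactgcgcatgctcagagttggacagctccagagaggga
Ptf1a, chr2:19445413-19445612, plus strand: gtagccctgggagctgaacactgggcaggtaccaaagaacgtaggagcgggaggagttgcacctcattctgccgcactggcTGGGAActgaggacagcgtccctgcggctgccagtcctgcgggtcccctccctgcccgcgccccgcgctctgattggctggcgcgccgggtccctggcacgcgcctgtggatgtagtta
Prdm13, chr4:21686014-21686213, minus strand: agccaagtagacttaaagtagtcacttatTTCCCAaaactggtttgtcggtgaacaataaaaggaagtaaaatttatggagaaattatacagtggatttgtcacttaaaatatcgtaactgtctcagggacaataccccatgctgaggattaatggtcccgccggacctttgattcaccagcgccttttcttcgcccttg
Onecut1, chr9:74861671-74861870, plus strand: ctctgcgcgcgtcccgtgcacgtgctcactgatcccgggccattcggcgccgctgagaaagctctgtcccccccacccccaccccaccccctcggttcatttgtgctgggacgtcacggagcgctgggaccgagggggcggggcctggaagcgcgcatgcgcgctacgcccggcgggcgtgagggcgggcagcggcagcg
The letters TGGGAA occurred on 1 of the strands in the windows of Ptf1a and Prdm13, and not in those of Foxn4 and Onecut1. On either strand, 17.9% of 32851 promoter windows of the same length held TGGGAA, so its presence in single promoters was common. The E-box CAGCTG, which 10.3% of all windows held, and the AP-2 type motif GCCNNNGGC, which 10.6% held, were in none of the 4 windows. GACGC, a motif described for Foxn factors, was in the windows of Ptf1a and Onecut1, not in capitals and apart from TGGGAA, and 17.6% of all windows held it. These matches are letters in a window and say nothing about binding.

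The reads assigned to features numbered 13634846 to 19477108 per library, so that 3 counts corresponded to 0.154 to 0.22 CPM, the count scaled to a common library size. This limit and the counting intervals below cover counting error only. No pair of organoids agreed within sampling noise. The label retina was checked against 5 defining genes. Rax, a progenitor factor, averaged 156 ± 18.1 normalized CPM at D20 (SD, n = 6), and Crx, a photoreceptor factor, averaged 628 ± 30.4. Rcvrn, which encodes the photoreceptor protein recoverin, averaged 2.89 ± 1.5 normalized CPM at D20 and 484 ± 116 at D30, and Six6 and Nrl were also present in every organoid. Markers of forebrain neurons varied widely between organoids of the same age, with their sum 18.5 to 92.0 normalized CPM at D20, 5.0 to 19.4 at D22, then 6.34 to 90.7 at D25 and finally 7.21 to 150.8 at D30.

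Foxn4 lies on chr5:114254164-114273807 (minus strand; these and the coordinates below are those of GENCODE on GRCm38). It fell at every step. At D20 it measured 21.8 normalized CPM in the lowest organoid, 26.3 at the median and 45.4 in the highest. The corresponding values were 8.44, 12.1 and 17.2 at D22, then 1.22, 3.15 and 6.84 at D25, and 0.343, 0.424 and 0.718 at D30. Every organoid was below every organoid of the timepoint before, so the groups did not overlap in any step. Of all 46949 tested features, 2.45%, 5.46% and 4.29% did not overlap in the steps to D22, D25 and D30. For D30 against D20 this share was 18.9%. These shares stand beside each statement on overlap below. The log2 fold change was -1.23 ± 0.27 (SE) for D22 against D20 (edgeR adjusted p = 0.00526), -1.85 ± 0.28 for D25 against D22 (adjusted p = 7.2e-05) and -2.79 ± 0.35 for D30 against D25 (adjusted p = 2.55e-06). Over the whole interval the log2 fold change was -5.87 ± 0.36 (adjusted p = 5.5e-14), which is 58.4-fold lower. In raw counts, 48 reads in the 6 organoids at D30 stood against 2544 at D20, or 1.69% after scaling by library size (95% exact counting interval 1.24% to 2.24%). The first of these calls was the least firm, since it passed the threshold in 17 of the 24 fits that each left out 1 organoid, and the adjusted p rose to 0.0257 without D20 replicate 1. In RNA of whole organoids, fewer cells of a type and less RNA per cell cannot be told apart, which holds for every gene below.

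**Figure D1:**
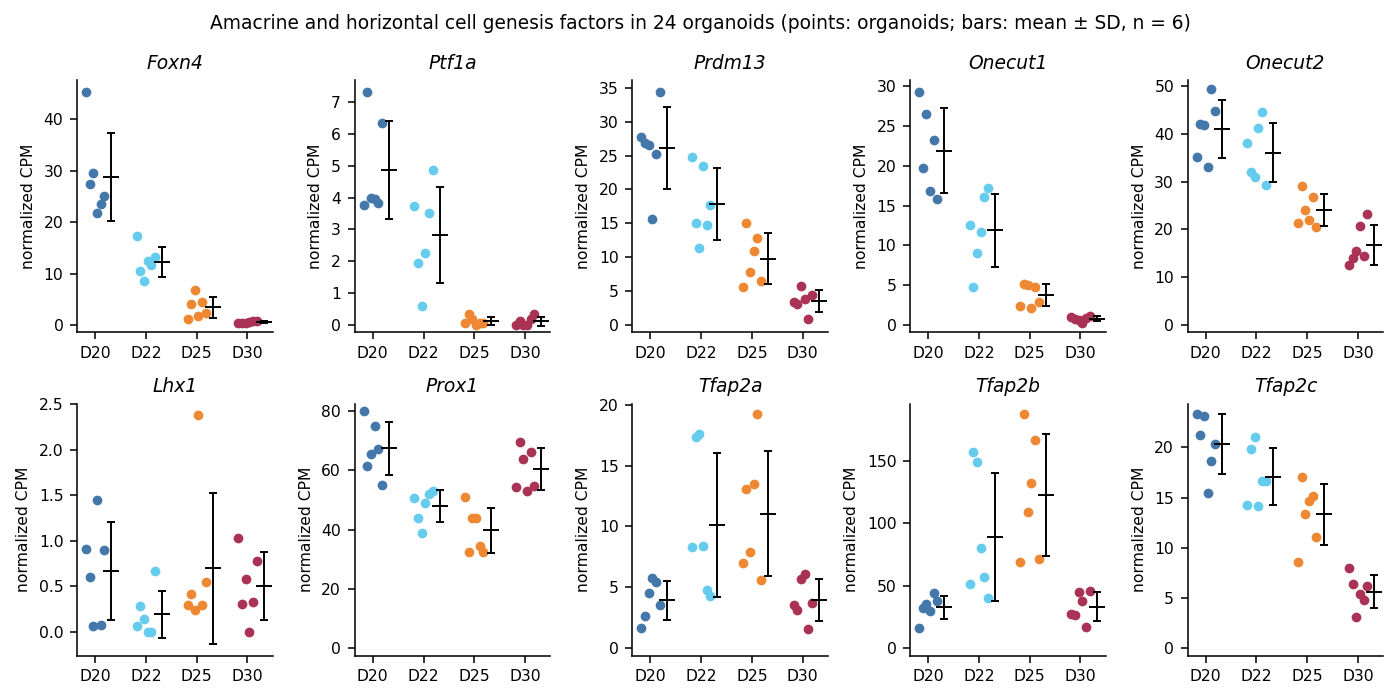
Normalized CPM (linear axes of different height) of the 10 genes at D20, D22, D25 and D30. Each point is 1 organoid and the black bar gives the mean ± SD of 6 organoids; mean Foxn4 falls from 28.8 to 0.487, Ptf1a is near 0 from D25, Prox1 is lowest at D25 with a mean of 39.8, and Tfap2b has its highest mean, 123, at D25.

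Ptf1a, on chr2:19445663-19447501 (plus strand), had its 1 called step from D22 to D25. The lowest, median and highest organoid measured 3.78, 3.97 and 7.32 normalized CPM at D20 and 0.608, 2.89 and 4.86 at D22. At D25 and again at D30 only 11 reads were counted in all 6 organoids together, at most 5 in an organoid at D25 and 6 at D30, and 1 organoid at D25 and 3 at D30 had none. All 6 organoids at D25 were below all 6 at D22, while D22 overlapped with D20 and D30 with D25. The change from D20 to D22 did not pass the test (log2 fold change -0.78 ± 0.45, adjusted p = 0.377). From D22 to D25 Ptf1a fell (fitted log2 fold change -4.55 ± 0.61, adjusted p = 1.41e-05), with the D25 reads at 3.90% of those at D22 after scaling (95% exact counting interval 1.92% to 7.09%). Between D25 and D30 the ratio of reads was 100.3% with an interval of 39.4% to 255%, so a change of 2.55-fold or less in that step was within counting error alone. Over the whole interval Ptf1a fell to 2.27% (1.12% to 4.10%), with a fitted log2 fold change of -5.37 ± 0.61 (adjusted p = 2.74e-08).

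Prdm13, on chr4:21677480-21685963 (minus strand), encodes a zinc finger factor that acts downstream of Ptf1a in amacrine cells, and it fell more slowly. Its lowest, median and highest organoids measured 15.6, 26.7 and 34.4 normalized CPM at D20, 11.4, 16.4 and 24.8 at D22, 5.56, 9.36 and 15.1 at D25, and 0.849, 3.55 and 5.79 at D30. Neighbouring timepoints overlapped at each step, while D30 and D20 did not overlap. The first 2 steps did not pass the test (log2 fold changes -0.54 ± 0.27, adjusted p = 0.288, and -0.88 ± 0.27, adjusted p = 0.0351). From D25 to D30 Prdm13 fell (log2 fold change -1.46 ± 0.29, adjusted p = 0.00125), and D30 against D20 gave -2.88 ± 0.30 (adjusted p = 4.03e-09), 7.35-fold lower. Fitted with the organoids of D25 and D30 alone, the D25 to D30 call was lost (adjusted p = 0.0113).

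The ratio of Prdm13 to Ptf1a reads within an organoid does not depend on the scaling of the library. It ranged from 3.66 to 7.29 at D20 and from 3.63 to 17.8 at D22, then from 36.4 to 397 at D25, and from 3.86 to 201 at D30, with 0.5 added to each count. The mean log2 ratio rose by 3.56 from D22 to D25 (2-sided exact permutation test, adjusted p = 0.00866 over 20 ratio tests) and was 2.77 higher at D30 than at D20 (exact permutation test, adjusted p = 0.0346). Its differences in the other 2 steps did not pass (exact permutation test, adjusted p = 0.354 and 0.335). At D25 and D30 the denominators were 0 to 6 reads, so single ratios at these ages rest on few reads.

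Onecut1, on chr9:74861921-74891781 (plus strand), and Onecut2, on chromosome 18, are related factors required for horizontal cells, and they fell to different extents. Onecut1 measured 15.9, 21.5 and 29.3 normalized CPM in the lowest, median and highest organoids at D20, 4.75, 12.1 and 17.2 at D22, 2.10, 3.84 and 5.16 at D25, and 0.206, 0.761 and 1.05 at D30. Its organoids at D30 were all below those at D25, and the earlier steps overlapped. The change to D22 did not pass (log2 fold change -0.88 ± 0.27, adjusted p = 0.049). Onecut1 then fell by 1.67 ± 0.28 on the log2 scale to D25 (adjusted p = 0.0002) and by 2.30 ± 0.32 to D30 (adjusted p = 1.63e-05). From D20 to D30 it was 28.9-fold lower (log2 fold change -4.85 ± 0.33, adjusted p = 7.82e-13), with its reads at 3.48% of those at D20 (95% exact counting interval 2.72% to 4.38%).

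Onecut2 measured 33.1, 41.9 and 49.4 normalized CPM in the lowest, median and highest organoids at D20, 29.2, 35.0 and 44.6 at D22, 20.6, 22.98 and 29.1 at D25, and 12.6, 14.9 and 23.2 at D30. Only the step from D22 to D25 separated all organoids of neighbouring timepoints. In that step the log2 fold change was -0.59 ± 0.15 (adjusted p = 0.00726), a call lost in 7 of the 24 fits without 1 organoid, with an adjusted p of at most 0.0253 (without D22 replicate 5). The steps before and after did not pass (log2 fold changes -0.19 ± 0.14, adjusted p = 0.547, and -0.52 ± 0.15, adjusted p = 0.026), and D30 was 2.45-fold lower than D20 (log2 fold change -1.29 ± 0.15, adjusted p = 2.8e-08). Within organoids, the ratio of Onecut1 to Onecut2 reads fell from between 0.356 and 0.832 at D20 to between 0.0116 and 0.0839 at D30. The mean log2 ratio fell by 1.05 from D22 to D25 and by 1.80 from D25 to D30 (exact permutation tests, adjusted p = 0.0241 and 0.00866), and over the whole interval by 3.63 (exact permutation test, adjusted p = 0.00866, from the smallest p that 6 against 6 organoids allow, 0.00216). Onecut1 therefore fell more than Onecut2.

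Lhx1, on chr11:84518284-84525535 (minus strand), encodes a LIM homeodomain factor that positions horizontal cells, and it was close to the limit of detection. It had 201 reads in all 24 organoids, with 0 to 43 per organoid, 3 or fewer in 7 organoids and 10 or more in 8. Summed over 6 organoids, 60 reads were counted at D20 and 17 at D22, followed by 72 at D25 and 52 at D30. The lowest, median and highest organoids measured 0.0688, 0.75 and 1.45 normalized CPM at D20, 0, 0.0982 and 0.665 at D22, 0.244, 0.358 and 2.38 at D25, and 0, 0.453 and 1.03 at D30. D25 replicate 4 alone gave 43 of the 72 reads at D25, and all timepoints overlapped. No difference between timepoints was detectable at this depth. When the filter on low counts was dropped, the adjusted p of its comparisons lay between 0.244 and 0.905. Lhx1 and Ptf1a are also known in the hindbrain and spinal cord. Of 11 markers of these regions only En2 could be tested, and the sum of the 11 was 2.24 to 23.4 normalized CPM at D20 and 36.8 to 133.6 at D30. En2 made up most of this sum over the 24 organoids. It averaged 376.5 normalized counts, and each other marker at most 7.78. The log2 fold change of En2 was 3.54 for D30 against D20 (edgeR adjusted p = 3.52e-09).

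Prox1, on chr1:190118035-190170714 (minus strand), is a homeodomain factor of horizontal cells and of some amacrine and bipolar cells, and its 1 called step was a rise, from D25 to D30. Its lowest, median and highest organoids measured 55.0, 66.5 and 80.1 normalized CPM at D20, 39.0, 49.99 and 53.0 at D22, 32.5, 39.1 and 51.1 at D25, and 53.2, 59.3 and 69.6 at D30. All organoids at D22 were below all at D20, and all at D30 were above all at D25. The first difference missed the threshold (log2 fold change -0.49 ± 0.12, adjusted p = 0.0125), although DESeq2 called it (adjusted p = 0.00428), and the step to D25 did not pass (-0.27 ± 0.12, adjusted p = 0.149). From D25 to D30 Prox1 rose by 0.60 ± 0.12 on the log2 scale, or 1.52-fold (adjusted p = 0.00124). At D30 it was not distinguishable from D20 (log2 fold change -0.16 ± 0.12, adjusted p = 0.309).

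Prox1 is also known in Müller glia and in lymphatic endothelium, so markers of both were read in the same organoids. The summed level of 6 Müller glia genes lay between 755 and 1021 normalized CPM at D25 and between 1152 and 4101 at D30, without overlap, and 5 of the 6 rose in that step. Of 6 endothelial markers only 2, Pecam1 and Kdr, could be tested. Neither was called from D25 to D30 (log2 fold changes 0.30 and -0.35, edgeR adjusted p = 0.877 and 0.0353). For D30 against D20 both were called, with log2 fold changes of 2.97 and -0.73 (edgeR adjusted p = 0.0015 and 1.2e-06). The lymphatic genes Flt4 and Lyve1 and the endothelial gene Cdh5 were too low to be tested, and Cdh5 averaged 0.131 ± 0.218 normalized CPM at D30. The part of these cells in the rise of Prox1 was not tested.

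Tfap2b, on chr1:19208914-19238576 (plus strand), and Tfap2a, on chr13:40715302-40738376 (minus strand), encode AP-2 factors kept in postmitotic amacrine cells and present in horizontal cells, and both had their highest mean at D25. Tfap2b measured 16.1, 34.0 and 44.0 normalized CPM in the lowest, median and highest organoids at D20, 40.0, 68.9 and 157 at D22, 69.4, 121 and 187 at D25, and 17.4, 32.5 and 46.1 at D30. It rose from D20 to D22 (log2 fold change 1.45 ± 0.30, adjusted p = 0.00378), although the lowest organoid at D22 was below the highest at D20. That call was lost without D20 replicate 1, D22 replicate 2 or D22 replicate 3 (adjusted p of 0.0148, 0.018 and 0.0209). The step to D25 did not pass (0.46 ± 0.30, adjusted p = 0.363). From D25 to D30 Tfap2b fell by 1.88 ± 0.31 on the log2 scale, or 3.68-fold (adjusted p = 0.000118), and all D30 organoids were below all D25 organoids. D30 was not distinguishable from D20 (log2 fold change 0.03 ± 0.30, adjusted p = 0.947).

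Tfap2a measured 1.68, 4.06 and 5.74 normalized CPM in the lowest, median and highest organoids at D20, 4.32, 8.34 and 17.6 at D22, 5.61, 10.49 and 19.2 at D25, and 1.57, 3.63 and 6.12 at D30. Neighbouring timepoints overlapped in every step. Its difference between D20 and D22 missed the threshold (log2 fold change 1.36 ± 0.37, adjusted p = 0.0244), with an adjusted p of 0.00456 in DESeq2, and D22 to D25 gave 0.12 ± 0.35 (adjusted p = 0.879). Tfap2a fell from D25 to D30 (log2 fold change -1.48 ± 0.36, adjusted p = 0.00923), a call that was lost in 13 of 24 fits without 1 organoid, with an adjusted p of 0.0415 without D25 replicate 5. D30 and D20 were not distinguishable (0.01 ± 0.37, adjusted p = 0.987).

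Tfap2c, on chr2:172549593-172558622 (plus strand), the third AP-2 gene of amacrine cells, had its highest mean at D20. Its lowest, median and highest organoids measured 15.5, 20.8 and 23.4 normalized CPM at D20, 14.2, 16.6 and 21.1 at D22, 8.63, 14.0 and 17.1 at D25, and 3.13, 5.79 and 7.99 at D30. The first 2 steps overlapped and did not pass (log2 fold changes -0.25 ± 0.18, adjusted p = 0.506, and -0.36 ± 0.18, adjusted p = 0.226). Tfap2c fell from D25 to D30 without overlap (log2 fold change -1.24 ± 0.19, adjusted p = 4.47e-05) and was 3.60-fold lower at D30 than at D20 (-1.85 ± 0.19, adjusted p = 3.52e-09).

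The 3 AP-2 genes were then set against each other within organoids. Tfap2a ranged from 0.0697 to 0.192 reads per read of Tfap2b in all 24 organoids, and none of the 4 comparisons of this ratio passed (exact permutation tests, adjusted p between 0.0999 and 0.942). The mean log2 ratio of Tfap2b to Tfap2c was 0.63 ± 0.62 at D20 (SD, n = 6), 2.20 ± 0.67 at D22, then 3.13 ± 0.29 at D25 and 2.54 ± 0.79 at D30. It rose by 1.57 from D20 to D22 and by 0.93 from D22 to D25 (exact permutation tests, adjusted p = 0.00866 and 0.0241), and it was 1.91 higher at D30 than at D20 (exact permutation test, adjusted p = 0.00866). The ratio of Tfap2a to Tfap2c was 1.52 higher at D22 than at D20 and 1.89 higher at D30 than at D20 on the log2 scale (exact permutation tests, adjusted p = 0.0241 and 0.0144). Of the 20 ratio tests, 10 passed an adjusted p of 0.05.

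**Figure D2:**
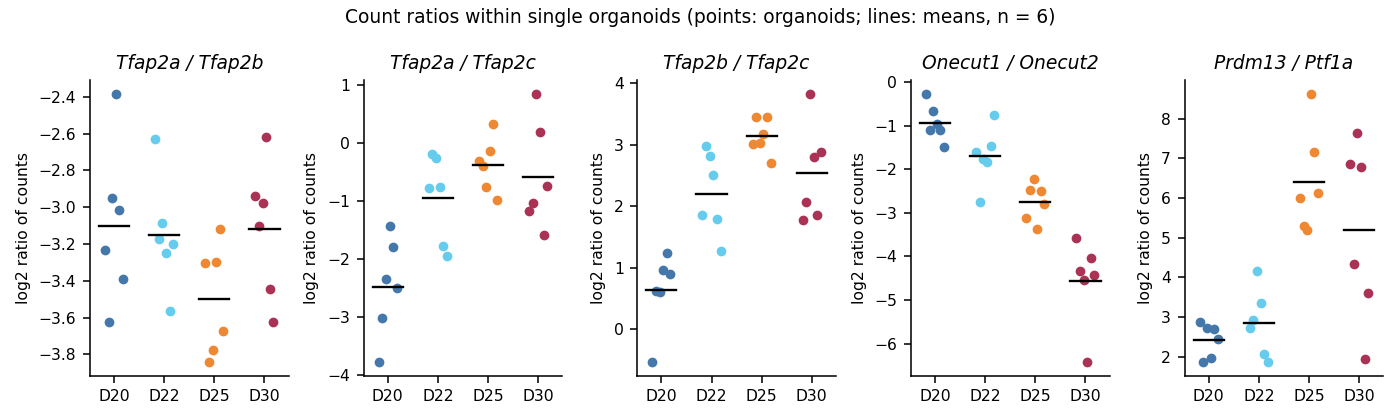
Log2 ratio of the read counts of related genes within single organoids, with 0.5 added to each count, by day. Points are organoids and lines are means of 6; Tfap2a/Tfap2b stays between -3.84 and -2.38, Onecut1/Onecut2 falls from a mean of -0.93 at D20 to -4.55 at D30, and Tfap2b/Tfap2c rises from 0.63 at D20 to 3.13 at D25.

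AP-2 genes and Prox1 are also known in the lens, surface epithelium and neural crest. No gene of 12 lens markers was abundant enough to be tested, and their sum was at most 11.2 normalized CPM in any organoid. The sum of 10 surface epithelium markers was 39.2 to 85.0 normalized CPM at D20 and 28.8 to 53.9 at D22. It was 13.8 to 34.5 at D25, with a median of 27.8, and 18.1 to 60.8 at D30. Only 4 of the 10 were abundant enough to be tested. The neural crest markers summed to at most 0.941 normalized CPM up to D25 and to at most 8.17 at D30. The part of these tissues in the levels of the AP-2 genes and Prox1 was not tested.

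Organoids of the same age differed in Tfap2a and Tfap2b together. After the mean of each timepoint was subtracted, the log2 levels of the 2 genes correlated over 24 organoids with r = 0.88 and rho = 0.70 (adjusted permutation p = 0.00036 and 0.0324 over 36 gene pairs), and r was 0.84 without the 2 organoids farthest from the median of Tfap2a. Within timepoints of 6 organoids r was 0.77 at D20 and 0.94 at D22, and 0.90 at D25 and 0.86 at D30. It was the only one of the 36 pairs in which both coefficients passed. Prox1 and Tfap2b gave r = -0.60 and rho = -0.64, of which only the second passed (adjusted permutation p = 0.065 and 0.0334), with r of -0.51 without the 2 organoids farthest from the median. Onecut2 and Tfap2b gave r = 0.39 and rho = 0.64 (adjusted permutation p = 0.231 and 0.0334). Prdm13 and Tfap2b had r = 0.98 at D25 and 0.92 at D30 but 0.05 at D20 and -0.57 at D22, and this difference between timepoints was not tested.

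**Figure D3:**
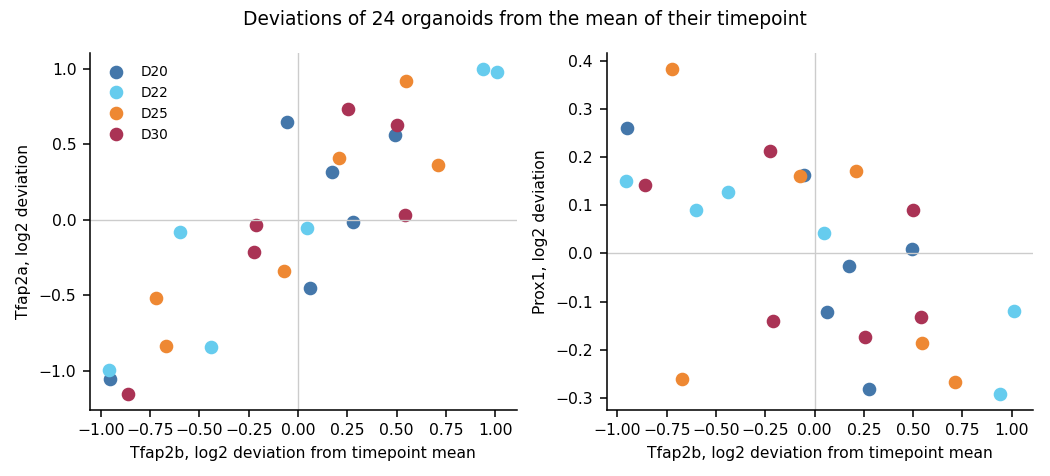
Deviation of each of 24 organoids from the mean of its timepoint, in log2 units of normalized CPM, for Tfap2b on the horizontal axes against Tfap2a (left) and Prox1 (right), with colours for the day. Tfap2a rises with Tfap2b (r = 0.88), and Prox1 scatters more around an inverse relation (r = -0.60).

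Levels of different genes can be compared only per length, as CPM divided by the exonic length in kilobases (RPKM). At D20 the order was Foxn4 with 8.56 ± 2.54 RPKM (SD, n = 6), Prox1 with 8.03 ± 1.08, Prdm13 with 6.09 ± 1.42, Tfap2c with 5.54 ± 0.805, Onecut1 with 5.33 ± 1.30, Tfap2b with 5.15 ± 1.49, Ptf1a with 3.23 ± 1.03, Onecut2 with 2.53 ± 0.370, Tfap2a with 0.801 ± 0.325 and Lhx1 with 0.164 ± 0.132. Neighbours in this order overlapped within 1 SD down to Onecut2, and Tfap2a and Lhx1 each stood below the gene before. At D25 Tfap2b led with 19.4 ± 7.69 RPKM, above Prox1 with 4.74 ± 0.916, and Foxn4 was at 1.01 ± 0.625. At D30 Prox1 with 7.19 ± 0.844 RPKM and Tfap2b with 5.27 ± 1.79 overlapped and stood above Tfap2c with 1.54 ± 0.449, while Onecut1 (0.18 ± 0.0763), Foxn4 (0.144 ± 0.0496), Lhx1 (0.123 ± 0.0905) and Ptf1a (0.0719 ± 0.0906) lay at the end and overlapped.

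Counted over the 9 tested genes, 1 rose (Tfap2b) and 1 fell (Foxn4) from D20 to D22, when 1.62% of all 46949 tested features were called higher and 0.285% lower. From D22 to D25 none rose and 4 fell (Foxn4, Ptf1a, Onecut1 and Onecut2), against 3.08% of all features higher and 2.19% lower. From D25 to D30 Prox1 rose and 6 fell (Foxn4, Prdm13, Onecut1, Tfap2a, Tfap2b and Tfap2c), against 1.76% higher and 1.75% lower. For D30 against D20 none rose and 6 fell (Foxn4, Ptf1a, Prdm13, Onecut1, Onecut2 and Tfap2c), while 13.9% of all features were called higher and 13.0% lower. In the joint test of the 4 timepoints 9 of the 9 were called, as were 27.2% of all features. Annotated genes, of which 16253 were tested, were called more often than all features in each comparison. From D20 to D22, 416 of them were called higher and 124 lower. From D22 to D25 these numbers were 1191 and 474, and from D25 to D30 they were 739 and 460. For D30 against D20, 4078 of them were called higher and 2712 lower, and 7128 were called in the joint test. The median log2 fold change of the 9 genes was -0.49, -0.59 and -1.46 in the 3 consecutive steps and -1.85 over the whole interval, beside medians of 0.02, -0.05, -0.02 and -0.04 over all tested features. The comparisons share organoids and are not independent of each other. Without the organoid of highest forebrain marker sum at each timepoint (D20 replicate 4, D22 replicate 6, D25 replicate 1 and D30 replicate 1), 3, 3 and 6 genes were called in the consecutive steps and 6 over the whole interval.

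**Figure D4:**
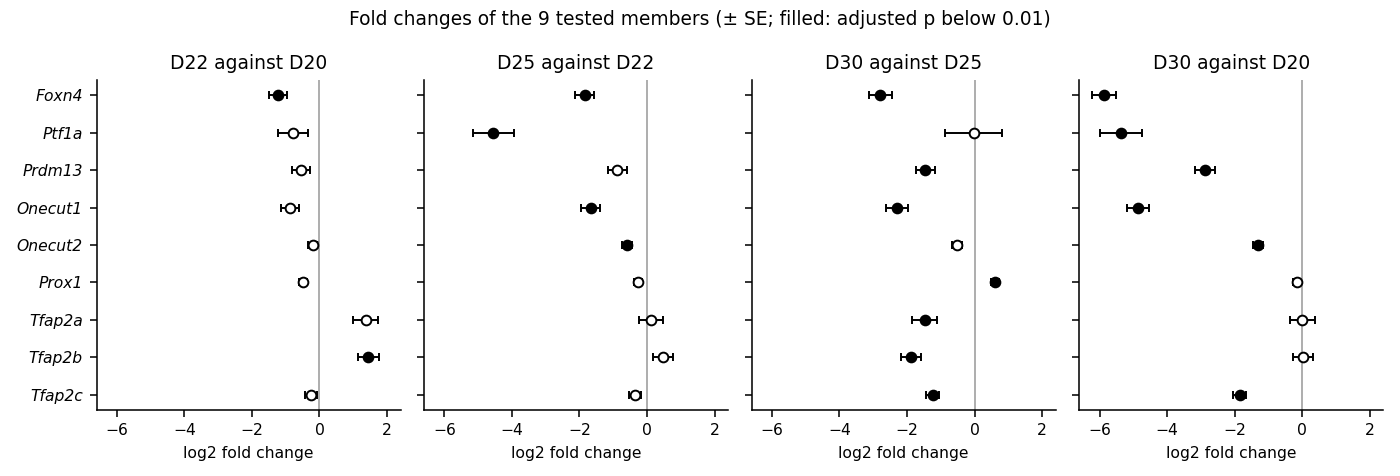
Log2 fold change with its SE of the 9 tested genes in the 3 consecutive steps and for D30 against D20. Filled points passed an adjusted p of 0.01 in edgeR; Foxn4 lies below 0 in each panel, Prox1 passes above 0 (0.60) for D30 against D25, and Prox1, Tfap2a and Tfap2b lie near 0 (-0.16, 0.01 and 0.03) for D30 against D20.

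Other genes of the same pathway were read from marker lists. Beside the D30 against D20 counts of these lists and those below, 13.9% of all tested features were called higher and 13.0% lower. Of 14 tested partners, upstream and proneural factors, 9 fell and none rose from D20 to D30, with a median log2 fold change of -1.42. The Notch ligands Dll4, Dll3 and Dll1, which progenitors switch on as they commit, gave log2 fold changes of -3.88, -3.54 and -2.62. Six3, an eye field factor, gave -2.15, and Neurod4, a bHLH factor of amacrine and other neurons, gave -1.80. By step, 1 of the 14 fell to D22 (Dll1), 8 in the step to D25 and 7 in the step to D30. Rorb, a nuclear receptor that acts with Foxn4 upstream of Ptf1a, fell by 1.00 ± 0.09 on the log2 scale from D25 to D30 (adjusted p = 5.17e-09). Rbpj, the partner of Ptf1a, averaged 124 ± 12.2 normalized CPM at D20 and 47.1 ± 6.33 at D30, which gave -1.39 on the log2 scale (adjusted p = 2.97e-11), and was named after its values were seen. Tcf12, an E protein, gave -0.07 (adjusted p = 0.612). Atoh7, a factor of the first retinal neurons, was too low to be tested, with 0.632 ± 0.483 normalized CPM at D20.

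Of 12 progenitor and cell cycle genes, 10 fell from D20 to D30, with a median log2 fold change of -1.67. Fgf15, a growth factor gene of retinal progenitors, had a log2 fold change of -5.32, Sfrp2 one of -3.46 and the Notch target Hes5 one of -3.43. Sox2, which progenitors share with Müller glia and some amacrine cells, gave 0.08 (adjusted p = 0.826). Of 8 tested factors of other retinal neurons, 5 fell and 2 rose. The ganglion cell factors Pou4f2, Pou4f1 and Isl2 had log2 fold changes of -3.80, -3.37 and -2.86, and the bipolar cell factor Vsx1 and the rod factor Nrl rose by 5.40 and 1.80. Prdm1 and Otx2, the latter a marker of photoreceptors and bipolar cells, also fell, with log2 fold changes of -2.52 and -1.52 (edgeR adjusted p = 3.37e-14 and 1.32e-12). The same comparison thus held falls among factors of other retinal neurons as well.

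Of 14 tested later factors of amacrine cells and their subtypes, 6 fell from D20 to D30 and none rose. Tfap2d, a further AP-2 gene, had a log2 fold change of -3.42, Lhx9 one of -2.60 and Barhl2, which specifies amacrine and ganglion cell subtypes, one of -2.35. Tfap2e, the remaining AP-2 gene, averaged 0.651 ± 0.628 normalized CPM at D20 and 3.83 ± 2.54 at D22, a rise of 2.55 on the log2 scale (adjusted p = 0.00912), and measured 3.80 ± 2.16 at D25 and 0.829 ± 0.481 at D30. Its difference between D30 and D25 missed the threshold (-2.19, adjusted p = 0.0149). Neurod6 and Neurod2 rose from D22 to D25 by 4.49 and 3.56 (adjusted p = 0.00466 and 0.0036), and these 2 genes are also factors of forebrain neurons, whose markers varied between organoids as given above. In the fit without the 4 organoids of highest forebrain sum, no gene of this list was called higher in that step.

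Of 14 tested terminal genes of amacrine cells, 4 rose from D20 to D30 and none fell, with a median log2 fold change of 0.90. In that comparison 4078 of the 16253 tested annotated genes were called higher and 2712 lower, so a count of 4 in 14 is not unusual. The 4 genes were Npy, a neuropeptide gene (3.74), Gad1, which makes GABA (1.88), the syntaxin gene Stx1a (1.30) and Calb2, which encodes calretinin (1.23). Gad2 gave 0.00 (adjusted p = 0.993) and the vesicular GABA transporter gene Slc32a1 gave 1.01 (adjusted p = 0.0243). At D30 the sum of these genes was highest in replicate 1, with 781 normalized CPM, and lowest in replicate 6, with 250. The same 2 organoids were highest and lowest in forebrain markers, Müller glia genes and later amacrine factors, and in lens and neural crest markers. In the sums of partner genes, other neuron factors and the defining genes of retina, replicate 6 was highest and replicate 1 lowest. The part of these differences in the sum of terminal genes was not tested. The cholinergic genes Chat, Slc18a3 and Slc5a7 and the dopaminergic gene Th were too low to be tested, with means of at most 0.443 normalized CPM at any timepoint.

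Of 6 tested horizontal cell genes, 2 rose and 1 fell from D20 to D30. Beside them, 4078 of the 16253 tested annotated genes were called higher and 2712 lower, and counts of this size in 6 genes are not unusual. Calb1, which encodes calbindin, averaged 2.81 ± 1.23 normalized CPM at D20 and 2.41 ± 1.21 at D22, with 3.77 ± 0.902 at D25 and 14.6 ± 5.79 at D30, and it rose from D25 to D30 by 1.95 on the log2 scale (adjusted p = 0.000199). The neurofilament gene Nefh rose by 1.09 from D20 to D30, and Ret fell by 1.33. Gja10, which encodes the connexin of horizontal cells, had a mean of at most 0.0548 normalized CPM at any timepoint, and Onecut3, the third cut-homeodomain gene, averaged 0.548 ± 0.875 at D20 and 0.0681 ± 0.0652 at D30 and was too low to be tested. Calbindin and neurofilaments are also made by other neurons, and 2 defining genes of horizontal cells, Lhx1 and Gja10, were at or near the detection limit.

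**Figure D5:**
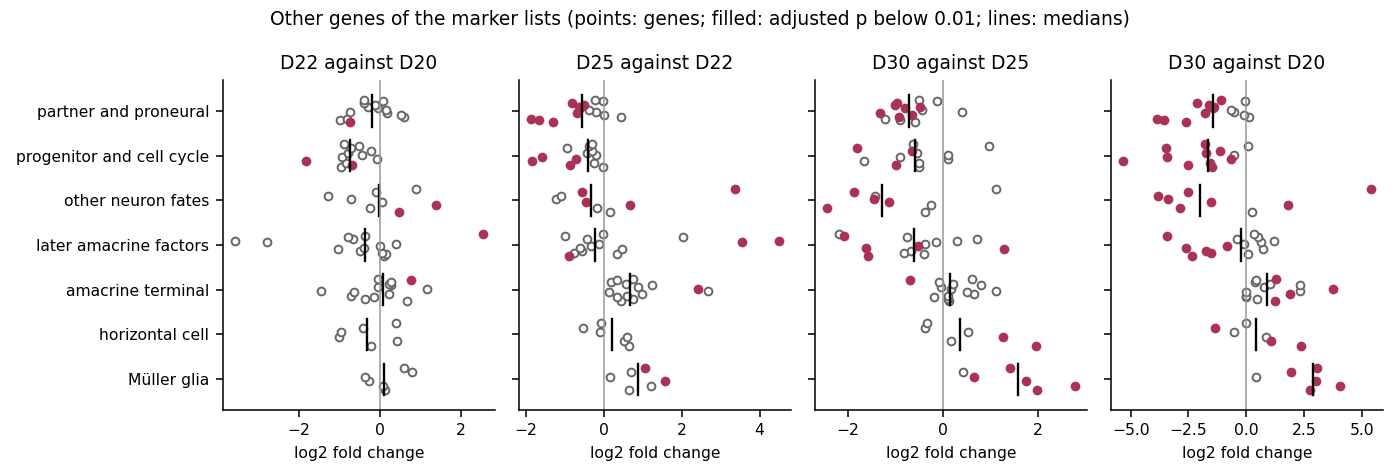
Log2 fold change of the tested genes of 7 marker lists in the 3 consecutive steps and for D30 against D20. Points are genes, filled where adjusted p was below 0.01, and black lines are medians; for D30 against D20 the median is -1.42 for partner and proneural genes and -1.67 for progenitor genes, 0.90 for amacrine terminal genes and 2.90 for Müller glia genes.

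The genes whose course was most like a member's were found by the Pearson correlation of log2 CPM over the 24 organoids, which share 4 timepoints, as a description. Foxn4 was most like Myb (0.988), a transcription factor of dividing cells, Hes6 (0.98), a bHLH factor of committed progenitors, Acss3 (0.977), Mybl1 (0.976) and Baz1a (0.975), and Onecut1 ranked 14 with 0.969. Ptf1a was most like Igf2bp2 (0.948), Acsl3 (0.946), Zscan12 (0.944), Utp14b (0.942) and Crot (0.941). Tfap2b was most like Tfap2a (0.933), Rd3l (0.929), Tdrd9 (0.912), Filip1l (0.911) and Sesn1 (0.900), while Prox1 gave -0.86.

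Some members share sequence with other annotated genes. Exons overlap with antisense genes for Ptf1a with Ptf1aos (at most 1 read in any organoid), Prox1 with Prox1os (at most 15) and Tfap2a with Gm26688 (at most 25). Exons of Onecut1 overlap with those of Gm20649, which lies on the same strand (0 reads). Reads that matched more than 1 feature were set apart as ambiguous, 139485 to 187398 per library, and enter no gene's count. Reads in exons shared by Onecut1 and Gm20649 can be among them whether or not strand was used. For the antisense partners this holds only if strand was not used, which is not given in the sources used here. How many reads these members lost in this way was not measured, so their levels can be too low. The reads counted for the partners do not measure that loss. Gm16551, which ends upstream of Onecut1 on the same strand (chr9:74847983-74860134), had a log2 fold change of -4.17 ± 0.45 for D30 against D20 (adjusted p = 8.29e-09), next to -4.85 ± 0.33 for Onecut1.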

How the data were processed

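RNA of 24 MROs (6 per timepoint, control only) was sequenced by the authors from strand-specific, rRNA-depleted libraries. Per the labels and methods, the authors used bcl2fastq 2.20, cutadapt 1.5, hisat2, stringtie 1.3.3 and htseq-count 0.6.1 on GRCm38/mm10, and deposited raw read counts for 126602 features per organoid. Whether counting used the strand is not given in the sources used here. Groups and replicate numbers were taken from the sample titles.

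A base mean under 10 excluded a feature, which left 46949 (16253 of them annotated genes). The counts entered edgeR 4.0.16 (R 4.3.3) with TMM factors and were fitted by quasi-likelihood in one model of the 24 organoids, where timepoint was the only factor. Its p-values were adjusted by Benjamini-Hochberg over the 46949 features at a threshold of 0.01, and fits with another filter over the features that filter kept. A difference that did not pass is not shown to be absent. Standard errors were derived from the F statistic. Normalized CPM use TMM-scaled library sizes, and RPKM divide them by the exonic length in GENCODE vM21, which also gave symbols and coordinates. Ratios were compared by 2-sided exact permutation tests, and deviations from timepoint means of log2 CPM (prior count 2) were correlated with 100000 permutations within timepoints, adjusted over 20 ratio tests and over 36 gene pairs, both at 0.05. At 13634846 to 19477108 counted reads, the common biological coefficient of variation of 0.385 exceeded counting error for all but the lowest genes. Replicate numbers name different organoids and did not pair them (median correlation of same-numbered deviations 0.0102, with 1 of 36 pairs over 0.1).

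The named genes were all 10 members, from each marker list at most the 6 called genes with the largest change in a comparison and defining genes that were not called or detected, the 5 genes most like Foxn4, Ptf1a and Tfap2b (Lhx1 was not tested), and annotated genes within 10 kb. The members and lists were chosen with earlier results of these data known, and some genes of the lists are not reported here. The alternatives were DESeq2 1.42.0, its size factors, other filters, annotated genes only, a replicate block, the compared timepoints only, other prior counts and pseudocounts, and the omission of each organoid. The scripts were tested on simulated data. Sequences are from RefSeq.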

Additional observations from a re-analysis of the deposited data

Results flagged for a closer look

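In 40 groups, the 10 genes at 4 timepoints, the highest or lowest organoid was checked for a gap to the others that is large against the range of its group, a check that chance alone passes in about 1 of 20 groups. Foxn4 at D20 was 45.4 normalized CPM in replicate 1, with the next organoid at 29.6 and the gap at 0.671 of the range. This organoid was also highest at D20 in Onecut1 (29.3 normalized CPM), Prox1 (80.1) and Tfap2c (23.4). It was lowest in Ptf1a (3.78), Tfap2a (1.68) and Tfap2b (16.1). Its sums of surface epithelium (85.0) and endothelium markers (342.0) were the highest at D20. Its sums of retina genes, other neuron factors, later amacrine factors and amacrine terminal genes were the lowest. The part of these values was not tested. Lhx1 at D25 was 2.38 normalized CPM in replicate 4, with the next at 0.549 and the gap at 0.857 of the range. Its hindbrain and spinal cord marker sum, which is mostly En2 over the 24 organoids, was 35.1 normalized CPM. It was 35.5 in D25 replicate 1 and 23.7 to 27.0 in the other D25 organoids. It was the highest of the D25 organoids in lens markers (4.43 normalized CPM) and neural crest markers (0.941), and its forebrain marker sum was 27.3, within the range of the others. The part of these values was not tested.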

How the results depend on the processing

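Of 1152 recomputed fold changes of members, 1080 kept their direction and their side of the threshold, 39 lost a call, 11 gained one and 22 changed sign. The number of genes called from D20 to D22, 2 in the report, was 4 with DESeq2 (with Prox1 and Tfap2a) and 0 to 4 without 1 organoid. With the replicate block it was 1, Tfap2b, and the Foxn4 call was lost (edgeR adjusted p = 0.0121). With the replicate block, Onecut2 from D22 to D25 and Tfap2a from D25 to D30 were also lost (adjusted p = 0.0113 and 0.0107), and the block changed no other call. Over all tested features, the calls from D20 to D22 were 894, 1605 with DESeq2, and 444 to 1332 without 1 organoid. From D22 to D25 they were 2478, 1580 without D22 replicate 1 and 1216 without the 4 organoids of highest forebrain sum, an alternative chosen after seeing the data. For the other comparisons of members, the counts without 1 organoid were 3 to 4 from D22 to D25, 6 to 7 from D25 to D30 and 6 over the whole interval. Gene pairs that passed by the Pearson r alone were 1 in the report, 3 with a prior count of 5 and 1 to 3 without 1 organoid. The rho was not counted in these alternatives. Ratio tests passed were 10, with 9 to 11 without 1 organoid.

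Some calls passed the threshold only narrowly and were lost when 1 organoid was left out. Foxn4 from D20 to D22 was lost without D20 replicate 1, 2 or 3 or D22 replicate 2, 3, 4 or 5 (edgeR adjusted p 0.0102 to 0.0257). Its log2 fold change in these fits was -1.06 to -1.24. Tfap2b from D20 to D22 was lost without 3 organoids (0.0148 to 0.0209). Onecut2 from D22 to D25 was lost without D22 replicate 1, 4 or 5 or D25 replicate 1, 3, 4 or 6 (0.0142 to 0.0253). Tfap2a from D25 to D30 was lost without 13 organoids (0.0101 to 0.0415), and with DESeq2's size factors (0.0116). Some of these organoids were of D20 or D22, outside that comparison. Without D20 replicate 3, for example, the Tfap2a log2 fold change was -1.48 (edgeR adjusted p = 0.0116). Onecut2 from D22 to D25 was also lost with no filter and with filterByExpr (0.0119 and 0.0108). Signs changed for 4 differences near 0, none of them called. Ptf1a from D25 to D30 was 0.01 with DESeq2 (0.00695 on the log2 scale), 0.0112 with its size factors, 0.11 without the 4 organoids and -0.78 to 0.58 without 1 organoid. Tfap2a from D22 to D25 was -0.11 to 0.35 without 1 organoid. For D30 against D20, Tfap2a was -0.077 with annotated genes only and -0.15 to 0.17 without 1 organoid, and Tfap2b was -0.034 and -0.11 to 0.17. The cause of these changes was not tested. Low counts limit Lhx1 throughout and Ptf1a from D25 on.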
